A study of Mus musculus with 6 samples.

Results

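The constant genes of the antibody chains and the gene of the joining chain were followed in single immune cells of mouse ovarian tumors. The members, 10 of the 32285 genes counted, were chosen by symbol: the heavy chain genes Ighm, Ighd, Ighg1, Ighg2b, Ighg2c, Ighg3 and Igha, the light chain genes Igkc and Iglc2, and Jchain. Single-cell libraries were prepared from 6 female C57BL/6 mice, 1 per treatment, so a comparison of 2 libraries is one of 2 mice and carries no test, and tests use the 6 libraries together. Tumors had been grown in the ovarian bursa from KPCA cells, a mouse ovarian cancer line with intact homologous recombination, in every mouse. The libraries are named control (solvent and control rat antibody), 2DG (2-deoxy-D-glucose, a glucose analog that also disturbs N-glycan synthesis), 2FF (2F-peracetyl-fucose, an inhibitor of fucosylation, given to the mice and to the tumor cells before injection), aPDL1 (antibody against the checkpoint ligand PD-L1), 2DG_aPDL1 and 2FF_aPDL1. The tissue is given as lymph node in the labels, and young and aged mice are mentioned in the series text, whereas the study describes tumors of young mice. Among the cells kept, 29 carried the keratin and other epithelial markers of tumor cells, 17 those of fibroblasts and 1213 those of B cells. Macrophages and monocytes numbered 20466, T cells 12830 and granulocytes 4030. Which tissue the cells came from was not tested.

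An antibody is made of heavy and light chains, whose variable ends bind the antigen and whose constant ends set the class. A resting B cell transcribes Ighm and Ighd from the same transcript unit, and class switching joins the variable region to an IgG, IgE or IgA constant gene further downstream, with loss of the DNA between. When a B cell becomes a plasma cell, its RNA is turned over largely to antibody chains. Jchain encodes the small J chain that links IgM into pentamers and IgA into dimers, the forms that the polymeric immunoglobulin receptor carries across epithelia.

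The heavy chain genes lie in the order of switching on the minus strand of chromosome 12 (GRCm38, GENCODE M21), from Ighm (chr12:113418558-113422730) to Igha (chr12:113254830-113260236), with Ighg2c (chr12:113285325-113288932) among the genes between. Igkc is at chr6:70726435-70726966, Iglc2 at chr16:19198396-19200351 and Jchain at chr5:88519809-88527891. The last 60 coding bases of the secreted transcripts show what separates the chains that J chain joins from those that it does not, and are written 5′ to 3′ on the coding strand. The capitals mark a cysteine codon in the next to last place, the residue known to bond to J chain, which 2 of the 6 ends hold.
Ighm, chr12:113420870-113420929: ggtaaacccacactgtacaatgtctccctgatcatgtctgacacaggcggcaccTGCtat
Igha, chr12:113258771-113258830: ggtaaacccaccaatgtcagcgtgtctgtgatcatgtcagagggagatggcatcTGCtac
Ighg1, chr12:113328979-113329038: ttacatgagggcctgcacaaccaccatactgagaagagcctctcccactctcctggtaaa
Ighg2b, chr12:113306392-113306451: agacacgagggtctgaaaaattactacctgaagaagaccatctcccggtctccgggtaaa
Ighg2c, chr12:113287392-113287451: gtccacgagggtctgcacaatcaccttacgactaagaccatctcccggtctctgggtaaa
Ighg3, chr12:113359668-113359727: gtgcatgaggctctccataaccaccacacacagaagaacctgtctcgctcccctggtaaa

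The libraries held 61859753 to 73885214 unique molecular identifiers (UMIs, each 1 captured RNA molecule), and 51633 of 57078 cells passed the limits of 250 genes and 5% mitochondrial UMIs. Cells were assigned to 10 classes by 6 markers each, none of them a member; at least 3 markers and 2 more than of any other class were needed. The plasma markers were Mzb1, Derl3, Tnfrsf17, Sdc1, Fkbp11 and Prdm1. This gate gave 77 plasma cells and 1213 B cells. No plasma cell had a barcode found in another library, while 389 barcodes were found in more than 1. All intervals below are exact, at 95%, and cover counting error only.

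Plasma cells carried 69.1% of the 822453 member UMIs, although they made up 0.149% of the cells. This share ran from 54.9% in 2FF_aPDL1 to 83.1% in control. In 2FF, cells assigned to no class held 81329 member UMIs. They made up 0.754% of the UMIs of those cells, and 0.0361% without 20 cells at 5% or more. The members amounted to 38.7% of all UMIs of the plasma cells in control, 43.8% in 2DG, 34.5% in 2FF, 40.3% in aPDL1, 43.9% in 2DG_aPDL1 and 42.1% in 2FF_aPDL1. In B cells the same share lay between 0.554% and 0.780%, and in plasmacytoid dendritic cells between 0.0778% and 0.131%. T cells, which make no antibody, held 0.00694% to 0.0768%, the highest in 2FF. The 2FF value was 0.0105% without 3 T-gated cells that held 5% or more member UMIs, and the next highest, 0.0329% in 2FF_aPDL1, was 0.00631% without 1 such cell. Single plasma cells ranged from 0.00993% to 63.1% around a median of 43.1%, and a single 2FF cell at the lower end had no leading heavy or light chain.

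**Figure D1:**
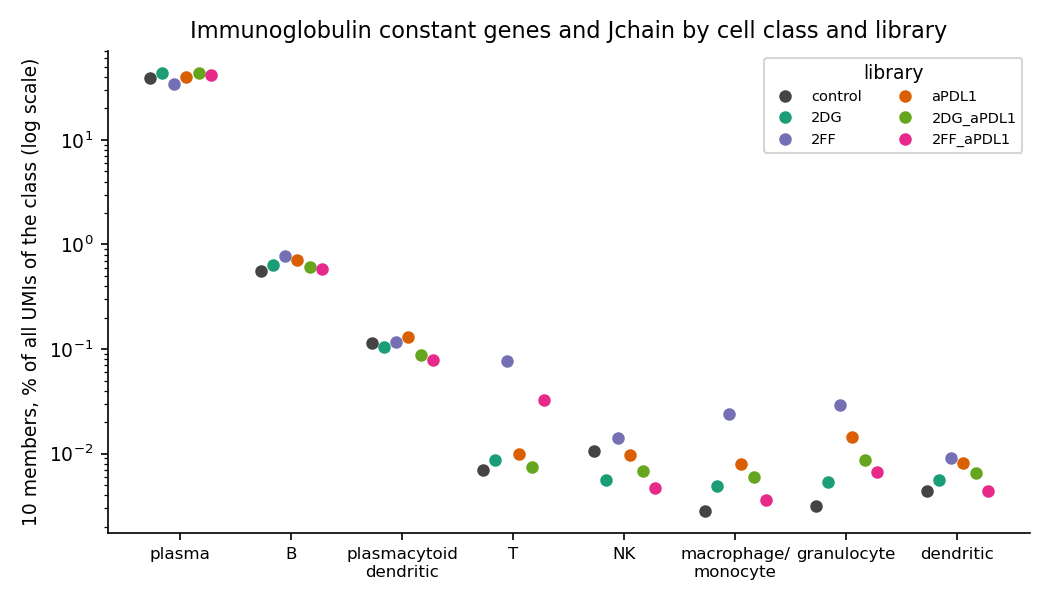
Percent of all UMIs that come from the 10 members (log scale), by marker-gated cell class, 1 point per library, rich cells included. Plasma cells sit between 34.5% and 43.9% in every library, B cells between 0.554% and 0.780%, and plasmacytoid dendritic cells stand above the other classes that are not of the B lineage.

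Igkc was the most abundant member of the plasma cells in every library. It took 22.9% of their UMIs in control, 25.2% in 2DG, 21.6% in 2FF, 25.1% in aPDL1, 27.6% in 2DG_aPDL1 and 25.7% in 2FF_aPDL1. Igha, the chain of mucosal antibodies, was highest in 2DG (9.44%) and control (7.79%) and lowest in 2FF_aPDL1 (2.82%), with 4.10%, 4.11% and 5.48% in 2FF, aPDL1 and 2DG_aPDL1. Ighg2c was highest in 2DG_aPDL1 (8.61%) and lowest in control (1.71%), where 1 cell was led by it. Jchain lay between 1.22% in aPDL1 and 2.45% in 2DG, with 2.24%, 1.51%, 2.12% and 1.46% in control, 2FF, 2DG_aPDL1 and 2FF_aPDL1.

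The remaining heavy chains followed single cells. Ighm was at 4.09% in control and 5.15% in 2FF_aPDL1, the libraries with Ighm-led cells, and at most 0.0381% in the others. Ighg1 was at 2.67% in aPDL1 and 0.645% in 2FF and at most 0.0114% elsewhere. Ighg2b ranged from 0.00524% in 2DG_aPDL1 to 4.05% in 2FF_aPDL1. Ighg3 had 30 UMIs in all plasma cells, and Iglc2 lay between 0.018% and 0.0759%. With 5 to 32 plasma cells in a library, these sums vary with the chains of a few cells, and the intervals of counting do not cover that.

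Free RNA from lysed cells can enter any droplet of this assay, and T cells served as the measure of it. An Igkc UMI was found in 26.7% of 2FF T cells (25.03% to 28.3%), at a median depth of 5685 UMIs, against 11.6% (8.52% to 15.2%) of control T cells at 6473 UMIs. Thinned to 1000 UMIs per cell, these shares became 5.72% and 2.28%, and B cells of the same libraries stood at 88.7% and 80.7%. The 2FF library also had the most plasma cells.

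Nearly every plasma cell was dominated by 1 heavy chain. Of the 77 plasma cells, 76 had a leading heavy chain, which held 94.7% to 100% of the heavy chain UMIs of the cell, with a median of 99.9%. Ighg2c, the C57BL/6 counterpart of IgG2a, led in 36 cells (47.4%, 35.8% to 59.2%), and Igha in 27 (35.5%, 24.9% to 47.3%). Ighg2b led in 7 cells, Ighg1 in 3 and Ighm in 3. Ighg3 led in 0 of 76 cells, which allows a share of up to 3.95% by a floor of 3 counts and 4.74% by the exact interval, and no UMI of Ighd was counted in any plasma cell.

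Igha-led and IgG-led cells were found in all 6 libraries. Control held 3 Igha-led, 1 IgG-led and 2 Ighm-led cells, and 2DG held 5 Igha-led and 4 IgG-led cells. In 2FF, 10 cells were led by Igha and 21 by an IgG chain, 16 of them by Ighg2c. aPDL1 held 4 Igha-led and 10 IgG-led cells, 2DG_aPDL1 held 3 and 8, and 2FF_aPDL1 held 2 and 2 beside 1 Ighm-led cell. The intervals of the Igha share overlapped between all libraries, from 27.3% (6.02% to 60.97%) in 2DG_aPDL1 to 55.6% (21.2% to 86.3%) in 2DG. Switched cells, led by IgG or IgA, were 73 of 76.

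**Figure D2:**
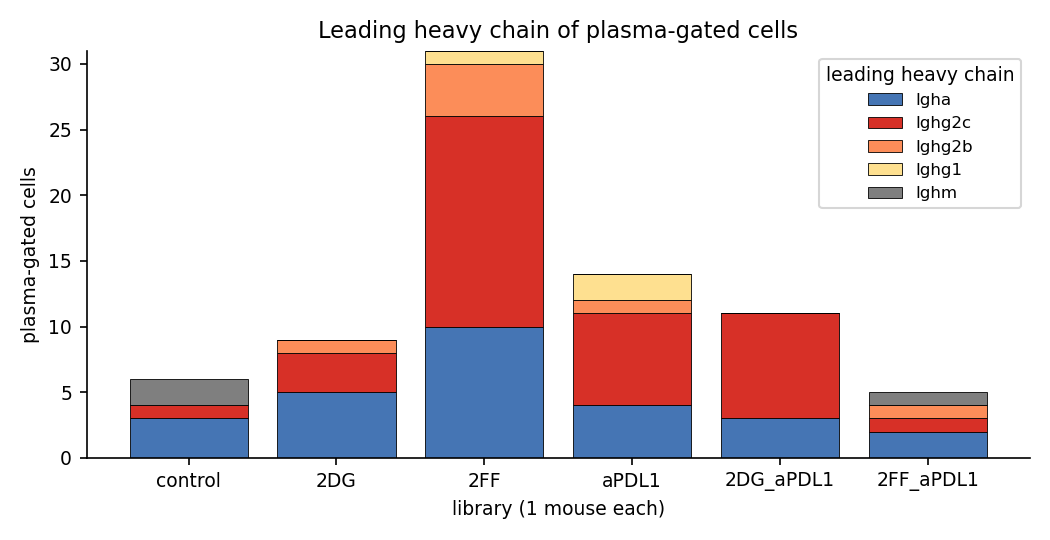
Number of plasma-gated cells by leading heavy chain, stacked, for each library of 1 mouse. 2FF holds the most cells, 31 with a leading chain, Igha and Ighg2c appear in every library, and Ighm leads only in 2 control cells and 1 2FF_aPDL1 cell.

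Plasma cells were 9.23% of the B lineage cells in control (6 of 65, 3.46% to 19.0%), 7.63% in 2DG (9 of 118, 3.55% to 13.99%) and 10.7% in 2FF (32 of 298, 7.46% to 14.8%). They were 6.48% in aPDL1 (14 of 216, 3.59% to 10.6%), 2.84% in 2DG_aPDL1 (11 of 387, 1.43% to 5.03%) and 2.43% in 2FF_aPDL1 (5 of 206, 0.793% to 5.57%). The 2 combinations were the lowest, with intervals that overlapped that of aPDL1, while the interval of 2FF lay above both. B cells numbered 59 in control and 376 in 2DG_aPDL1, so the share moves with both counts. Of all cells kept, plasma cells were 0.0661% in control, 0.117% in 2DG, 0.347% in 2FF, 0.159% in aPDL1, 0.122% in 2DG_aPDL1 and 0.0641% in 2FF_aPDL1, so that on this scale control lay beside 2FF_aPDL1 at the lower end. With aPDL1 the share of the B lineage was lower in 3 of 3 pairs of libraries (none, 2DG and 2FF, each without and with aPDL1), with means of 9.20% without and 3.92% with it (exact two-sided permutation p = 0.25, the smallest that 3 pairs can give; adjusted p = 1 over 4 such shares). The share of kept cells was higher in 2 of the 3 pairs (exact permutation p = 1).

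Light chains were kappa in most cells. Of the plasma cells with a light chain, 75 were kappa and 1, in 2FF, was lambda (1.32%, 0.0333% to 7.11%). Of 1193 B cells with at least 3 light chain UMIs, 147 were lambda (12.3%, 10.5% to 14.3%). A cell was called by the larger of Igkc and the sum of Iglc1, Iglc2 and Iglc3. Iglc2 UMIs were in 77.7% and Igkc UMIs in 93.8% of all B cells, so many cells called kappa also held lambda RNA. Per library the lambda share of B cells ran from 8.81% in 2FF (23 of 261, 5.67% to 12.9%) to 20.8% in 2DG (22 of 106, 13.5% to 29.7%). Beside control at 16.1%, the other libraries stood at 10.2% (aPDL1), 11.3% (2DG_aPDL1) and 15.5% (2FF_aPDL1).

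The lambda rows share sequence, which bears on how reads are split between Iglc2 and the rows Iglc1 and Iglc3, which are not among the 10 members. The last 60 coding bases are shown with capitals where the 3 genes are not all alike, which is at 13 positions.
Iglc1, chr16:19061755-19061814: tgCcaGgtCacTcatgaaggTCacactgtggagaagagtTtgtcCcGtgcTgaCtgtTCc
Iglc2, chr16:19198539-19198598: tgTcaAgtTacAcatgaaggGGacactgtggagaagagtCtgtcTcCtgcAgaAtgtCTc
Iglc3, chr16:19065368-19065427: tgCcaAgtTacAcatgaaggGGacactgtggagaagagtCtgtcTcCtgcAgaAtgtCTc
Iglc2 and Iglc3 differ at 1 of these 60 bases, and 43 of 409 windows of 50 bases in the Iglc2 transcript occur in that of Iglc3, so the split between these rows is uncertain. Iglc1 shares no such window with either. Ighg2b and Ighg2c share 56 windows of 1065, 5.26% of those of Ighg2b.

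Jchain followed the class of the heavy chain. In the 27 Igha-led cells it took a median of 3.94% of the UMIs of a cell (quartiles 2.44% and 4.52%), and in the 46 IgG-led cells 0.616% (quartiles 0.442% and 1.06%). The ranges of single cells overlapped, 1.18% to 6.08% against 0.0376% to 2.02%. The 3 Ighm-led cells held 0.453%, 1.49% and 1.78%. IgG-led cells, whose chain lacks the cysteine codon shown above, also carried Jchain RNA.

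**Figure D3:**
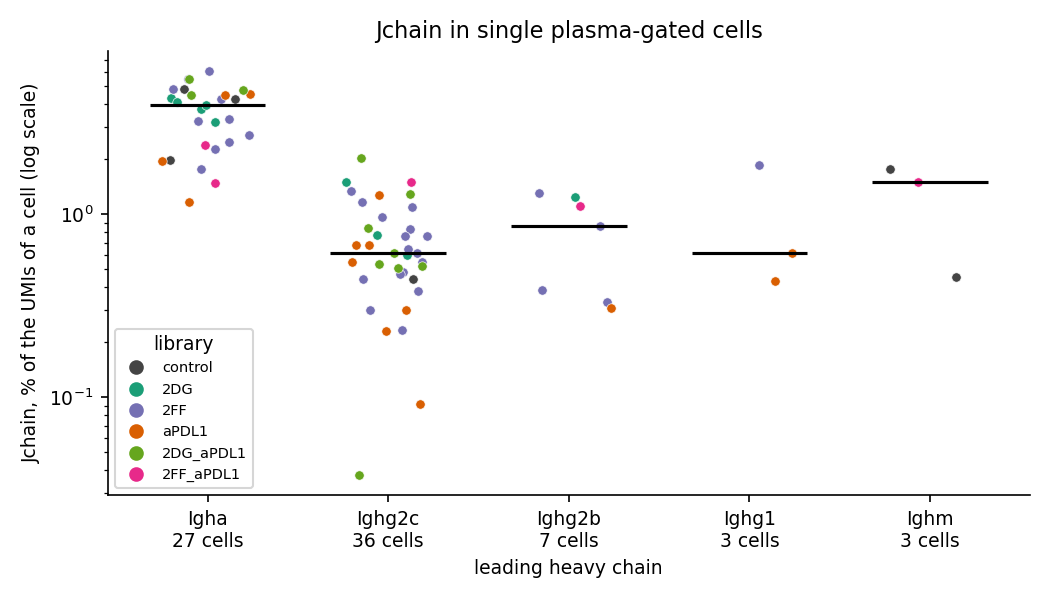
Jchain as percent of all UMIs of each plasma-gated cell (log scale), by leading heavy chain, coloured by library, with the median of each class as a line. The Igha-led cells lie around 3.94% and the Ighg2c-led cells around 0.615%.

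Summed within a library, Jchain was 3.49% of the UMIs of Igha-led cells and 0.446% of those of IgG-led cells in control. The corresponding shares were 3.82% and 0.96% in 2DG, 3.79% and 0.735% in 2FF, and 3.09% and 0.499% in aPDL1. They were 4.92% and 0.84% in 2DG_aPDL1, and 1.69% and 1.31% in 2FF_aPDL1, the smallest gap. Jchain was higher in the Igha-led cells of 6 of 6 libraries, on average 4.42-fold (log2 2.15 ± 0.93, SD over libraries; exact two-sided sign-flip permutation p = 0.03125, the smallest that 6 libraries can give; adjusted p = 0.0365 over 7 such comparisons, all chosen after their values were seen). Relative to UMIs that are not of immunoglobulin genes, 5 of 6 libraries were higher, 2FF_aPDL1 turned (2.26% against 2.51%) and p was 0.0625 (exact permutation). Igkc was higher in Igha-led cells in 3 of 6 libraries, on average 0.932-fold (log2 -0.10 ± 0.56, SD; exact permutation p = 0.812).

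A fit over all genes placed this difference among others. UMIs were summed per library over Igha-led and over IgG-led cells and compared with edgeR's quasi-likelihood test, with the library as a block and Benjamini-Hochberg adjustment; 10 of 2311 genes passed an adjusted p of 0.05, 0.433% of those tested, 5 in each direction. Jchain was one of them (log2 2.33 ± 0.48, SE; adjusted p = 0.0319 with edgeR). The adjusted p rose to 0.0927 without the 2DG library, 0.25 without 2FF, 0.177 without aPDL1 and 0.192 without 2DG_aPDL1, at log2 values of 2.18 to 2.40, and fell to 6.29e-05 without 2FF_aPDL1. The count of genes that passed was 6 without 2DG, 3 without 2FF, 4 without aPDL1, 5 without 2DG_aPDL1 and 15 without control. Igha, Ighg2c and Ighg2b, which defined the groups, are among the 10, as are the variable segments Igkv3-1 and Igkv3-2, both lower in Igha-led cells.

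The other 4 genes, named after their values were seen, were Txndc5, Tnfrsf17, Camk2b and Ly6c2. On the IgG-led side control has 1 cell, with 1 Txndc5 UMI (61 CPM) and 0 of Tnfrsf17. Txndc5, a protein disulfide isomerase of the endoplasmic reticulum, was at 1033 to 1433 CPM (UMIs scaled to a common library total) in the Igha-led and 61 to 650 CPM in the IgG-led cells, higher in 6 of 6 libraries without overlap (log2 1.99 ± 0.35, SE; edgeR adjusted p = 0.0117). Tnfrsf17, the survival receptor BCMA of plasma cells and one of the gate markers, was higher in 6 of 6 libraries (log2 2.57 ± 0.51, SE; edgeR adjusted p = 0.0269), on 54 UMIs against 18. Camk2b, a subunit of a calmodulin-dependent kinase, had a median of 744 CPM against 299 CPM and did not overlap (log2 1.32 ± 0.29, SE; edgeR adjusted p = 0.0488). Ly6c2, a surface protein, was lower in the Igha-led cells of 6 of 6 libraries, at 107 to 554 CPM against 733 to 3444 CPM (log2 -2.46 ± 0.38, SE; edgeR adjusted p = 0.00282). Ly6c2 passed with any 1 library left out, with an edgeR adjusted p of 0.000622 to 0.0255. The comparison was not repeated without cells that carried markers of another class. An IgG-led cell of 2FF held 6368 genes and 4.68% member UMIs, and another 5595 genes and 6.29%. An IgG-led cell of aPDL1 held 5238 genes and 5.35%, while the lowest Igha-led cell held 21.7%. Whether RNA of other cells entered these sums was not tested. Txndc5 did not pass without 2FF (0.162), aPDL1 (0.0529) or 2DG_aPDL1 (0.127), nor did Tnfrsf17 (0.25, 0.194 and 0.174) and Camk2b (0.231, 0.194 and 0.386). Camk2b also missed the threshold without 2DG (0.143) and with no filter on low counts (0.285).

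Of the antibody secretion program, all 20 genes were tested and 2, Tnfrsf17 and Txndc5, were higher, with a list median of log2 0.18 against 0.00 over all genes. Xbp1, the transcription factor of secretory cells, stood at 818 to 1319 CPM in Igha-led and 855 to 1369 CPM in IgG-led cells (edgeR adjusted p = 1). Of the B cell identity genes 3 of 20 and of the survival and receptor genes 2 of 14 had enough UMIs for the fit, with list medians of log2 -0.04 and 0.32. Ccr10, the receptor that guides IgA plasma cells to mucosa, was too sparse for the fit, with 65 UMIs in Igha-led and 13 in IgG-led cells, and was higher in 6 of 6 libraries. Slpi, a protease inhibitor of secretions, was lower in 6 of 6 libraries, at a median of 4536 CPM against 27660 CPM (log2 -2.59, edgeR adjusted p = 0.083), and passed without control (0.00104) and with DESeq2 (adjusted p = 0.00111).

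**Figure D4:**
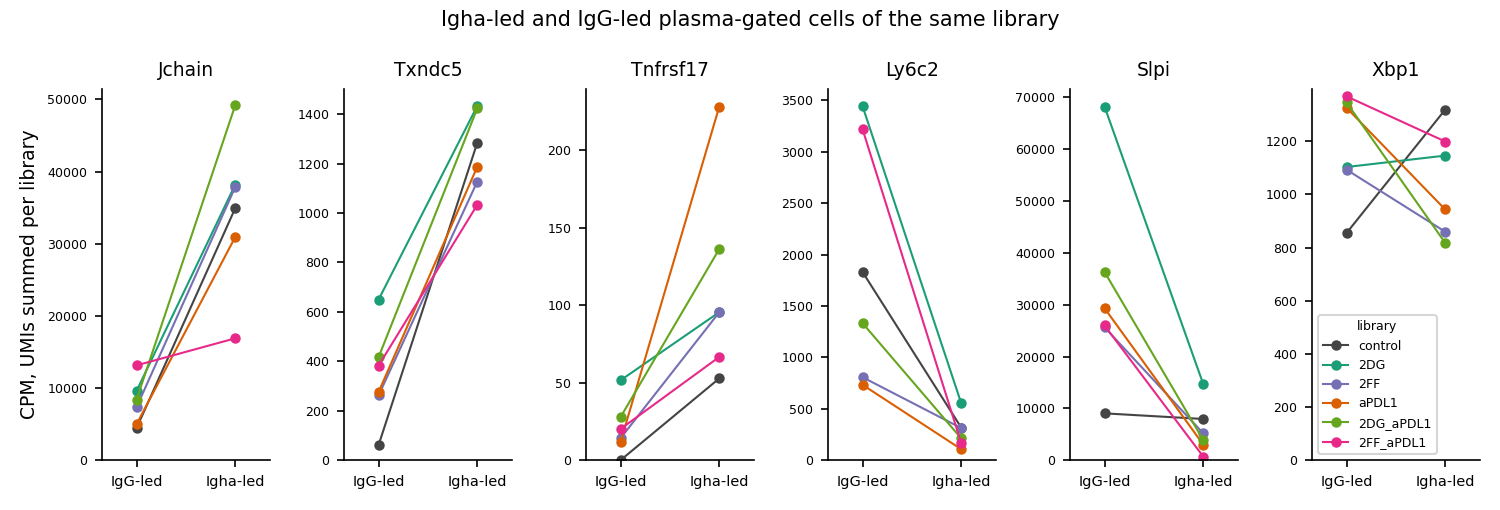
CPM of 6 genes in IgG-led and Igha-led plasma-gated cells, UMIs summed per library, with a line joining the values of each library; all axes start at 0. Jchain, Txndc5 and Tnfrsf17 are higher and Ly6c2 and Slpi lower in the Igha-led cells of all 6 libraries, while Xbp1 is higher in 2.

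The plasma cells used many variable segments, and part of them shared a pair. In 62 cells both an Ighv and an Igkv row had at least 10 UMIs, and they formed 42 pairs, 11 of which were seen in more than 1 cell and together made up 31 of the 62 cells. Ighv1-53 with Igkv6-25 was the most frequent, in 8 cells of 4 libraries (5 in 2FF and 1 each in control, 2DG and aPDL1), led by Igha in 2, Ighg2b in 2 and Ighg2c in 4. Ighv1-80 with Igkv4-68 was found in 4 cells of 2 libraries. Rows of related segments share sequence and the junctions were not read, so a shared pair does not show a shared clone. Iglv1, a lambda segment, had UMIs in 70 of the 75 kappa plasma cells, at a median of 41 and up to 493.

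A set of droplets of the control library stood apart. Outside the plasma gate, 50 cells had 5% or more member UMIs, 25 of them in 2FF and 12 in control. Of the 50, 30 were led by an IgG chain, 8 by Igha and 12 by Ighm. Of these cells, 17 held 2 or more plasma markers without 3 of a class other than B or plasma. The plasma counts and shares above therefore leave out some cells rich in antibody RNA, most of them in 2FF and control. The 12 control droplets were small, with 859 to 1992 UMIs against a median of 19222 in plasma cells, and held at most 1 plasma marker, yet 17.3% to 33.9% of their UMIs came from the members. All 12 were led by Ighm, without a UMI of Ighd, and all held Jchain (0.447% to 0.815% of UMIs). Their light chain was of 1 kind: all 52 Igkv UMIs were Igkv14-126, and all 15 Ighv UMIs, in 9 of the droplets, were Ighv11-2. This pair is known from B-1 cells that bind phosphatidylcholine. The droplets accounted for 52 of 52 Igkv14-126 UMIs of the kept control cells, and the other libraries together had 5. Any 2 of the barcodes differed at 8 or more of 16 bases. Ighm per 100 Igkc UMIs lay between 90.7 and 152 in them, and whether they are 12 separate cells was not tested. Counted with the gated cells, they lower the switched share of control from 66.7% to 22.2%.

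In B cells, Ighm and Ighd, the chains of resting cells, varied little between the libraries. Ighm was at 2361 CPM in control, 2470 in 2DG, 2306 in 2FF, 2563 in aPDL1, 2332 in 2DG_aPDL1 and 2420 in 2FF_aPDL1. Ighd ranged from 277 CPM in 2DG to 354 CPM in control. Igkc, the kappa chain, was lowest in control (2189 CPM) and highest in 2FF (4105 CPM), with 670 of 6109 UMIs of 2FF in 1 cell. Iglc2 ran from 421 CPM in aPDL1 to 630.3 CPM in 2DG. Jchain was found in 18 of the 1213 B cells. Ighm led in 1071 of 1173 B cells with at least 3 heavy chain UMIs (91.3%, 89.5% to 92.8%), and Ighd in 35. Switched chains led in 67 (5.71%, 4.45% to 7.20%), with Ighg2b in 29, Ighg1 and Ighg2c in 14 each, Igha in 6 and Ighg3 in 4. These counts pool unlike libraries. In aPDL1, Ighg2c led 6 B cells, Ighg1 5 and Ighg2b 3, and among plasma cells Igha outnumbered Ighg2c in control (3 against 1), 2DG (5 against 3) and 2FF_aPDL1 (2 against 1).

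The share of switched B cells was 1.82% in control (1 of 55, 0.046% to 9.72%), 10.7% in 2DG (11 of 103, 5.45% to 18.3%) and 6.32% in 2FF (16 of 253, 3.66% to 10.1%). It was 9.09% in aPDL1 (18 of 198, 5.48% to 13.99%), 3.02% in 2DG_aPDL1 (11 of 364, 1.52% to 5.34%) and 5% in 2FF_aPDL1 (10 of 200, 2.42% to 9.003%). The intervals of aPDL1 and of 2DG each lay above that of 2DG_aPDL1, and that of control, with 55 cells, overlapped all others. Leaving out cells with 2 or more markers of another class took 2DG to 4.55% (4 of 88).

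Between libraries, the members that passed a log2 ratio of 1 (on CPM + 5, genes with at least 50 UMIs in both libraries together) were switched chains and Jchain. 2DG, 2FF and aPDL1 were each compared with the same control library, and both combinations with the same aPDL1 library. Ighm, Ighd, Ighg2b, Igkc and Iglc2 were testable in all 5 comparisons. Ighg1 and Ighg2c were too sparse in 2FF over control, Ighg3 and Jchain in the 3 comparisons with aPDL1, and these 4 with Igha in 2DG over control. Each switched chain and Jchain had at most 5 UMIs in control B cells, so these were testable over control only through the other library. In 2FF over control 4 of 8 testable members were past the fold, all higher, against 6.41% of all genes in either direction. Igha was at 343 CPM in 2FF and at 0 in control, at least 42.1-fold higher against a floor of 3 counts, but 472 of its 511 UMIs lay in 1 B-gated cell that also held 70 of the 80 Jchain UMIs, 2 plasma markers and 11.2% members. Jchain was at 53.8 against 5.44 CPM, Ighg2b at 88 against 13.6 CPM, and Ighg3 at 39 against 0 CPM, at least 4.78-fold higher. With the cell richest in each gene left out, 1 of 5 testable members remained past the fold.

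In aPDL1 over control 4 of 8 members were past the fold, all higher, against 5% of all genes. These 4 met the minimum of UMIs through aPDL1, with 57 to 75 UMIs there against 0 to 5 in control. Chains this sparse could enter only where aPDL1 was high. Igha was at 67.8 CPM (53.3 to 85.2) against 0, at least 8.31-fold, and Ighg1 at 65.1 CPM against 0, at least 7.98-fold. Ighg2c was at 68.8 CPM (54.1 to 86.2) against 5.44 (0.659 to 19.6), and Ighg2b at 52.2 CPM against 13.6. In 2DG over control 1 of 5 was past the fold, Ighg2b at 91.2 CPM, against 3.96% of all genes. The 2DG B cells gave 602890 UMIs against 1090939 in aPDL1, so fewer members reached the minimum. Under it, Ighg1 was at 73 CPM, Ighg3 at 51.4 and Igha at 33.2, each against 0 in control. These are at least 8.9-fold, 6.3-fold and 4.1-fold. Also under it, Ighg2c was at 19.9 against 5.44 CPM and Jchain at 4.98 against 5.44. The control B cells gave 868 Ighm UMIs but 7 of all switched chains together, so a ratio over control rests on few counts. Without cells that carried markers of another class, 1 of 5 members was past the fold in aPDL1 over control and 0 of 4 in 2DG over control.

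With aPDL1 as the base the switched chains were lower. In 2DG_aPDL1 4 of 8 members passed, all lower, against 2.33% of all genes: Igha (log2 -2.49), Ighg2c (-1.99), Ighg1 (-1.48) and Ighg2b (-1.01). In 2FF_aPDL1 3 of 8 passed, all lower, against 1.52%: Ighg1 (-3.44, 2 UMIs against 71), Igha (-2.02) and Ighg2c (-1.55). Igha, Ighg1, Ighg2c and Ighg2b each met the minimum of UMIs in aPDL1 alone, with 74, 71, 75 and 57. Igha stood at 7.97 CPM in 2DG_aPDL1 (4.64 to 12.8) and 13 CPM in 2FF_aPDL1 (7.71 to 20.6), below the 67.8 CPM of aPDL1. Jchain, under the minimum, had 28 UMIs in aPDL1, 24 of them in 1 cell, and 5 and 3 in the combinations. The member medians were log2 0.065 (2DG), 1.61 (2FF, 1.58 with genes at 0 set to their bound), 1.13 (aPDL1), -0.61 (2DG_aPDL1) and -0.41 (2FF_aPDL1), beside -0.005, 0.04, 0.07, -0.09 and -0.03 over all genes. They cover 5 members in 2DG and 8 in each other comparison. Sparse chains entered through the library where they were high. The minimum of UMIs therefore set these medians in part, and they do not measure a shift against all genes.

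A fit over all 6 libraries, added after these ratios were seen, tested aPDL1 and each agent. B cell UMIs were summed per library and compared with edgeR, additive in aPDL1 (without and with) and in the agent (none, 2DG or 2FF), which assumes that an agent acts alike with and without aPDL1. All 10 members were tested and edgeR called 0 of them for aPDL1, 0 for 2DG and 0 for 2FF, against 0.0369%, 0.00923% and 0.00923% of 10835 genes. In the ratios above, Ighg2b with 2DG and Igha with 2FF differed in direction without and with aPDL1. The fit counts such a difference as spread, so for these chains 0 calls do not show that an effect was absent. At an unadjusted p of 0.05 there were 2, 2 and 1 members, and DESeq2 called 0 in each. The lowest p for aPDL1 was that of Ighg3 (log2 -1.63 ± 0.57, SE; edgeR adjusted p = 0.9998) and for 2FF that of Ighg1 (log2 -2.93 ± 0.93, SE; edgeR adjusted p = 0.9997). Ighm was close to level, at log2 0.04 ± 0.21, 0.01 ± 0.25 and -0.04 ± 0.25 for the 3 terms.

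Values of some members turned on single libraries, and leaving out 1 library leaves 1 agent group with 1 library. Igha for 2FF stood at log2 0.88 with all libraries and at 11.4 without the aPDL1 library. It stood at -1.56 without control, -1.66 without 2FF and 3.28 without 2FF_aPDL1. Without 2DG or without 2DG_aPDL1 it stayed at 0.91. Igha for aPDL1 stood at log2 -3.65 without control and -3.69 without the aPDL1 library. Both values rest on the same libraries, those of 2DG and 2FF without and with aPDL1. Without the 2FF library Igha for aPDL1 stood at 0.37. In 2FF, 472 of the 511 Igha UMIs lay in 1 B-gated cell. With no filter on low counts 2, 2 and 1 members were called for aPDL1, 2DG and 2FF, among 22, 44 and 36 of 17410 genes.

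Few genes of the pathway lists were past the fold in B cells. Their counts cannot be ranked against those of the members, since sparse members became testable through the library where they were high. Of the antibody secretion program 11 to 15 of 20 genes were testable per comparison and 0 or 1 was past the fold. Over all genes, 1.52% to 6.41% were past it. Hspa5, an endoplasmic reticulum chaperone, was lower in 2DG over control, and ran from 324 to 734 CPM over all libraries (median 410). Ell2, an elongation factor used in the switch to secreted transcripts, was higher in both combinations over aPDL1. Of the B cell identity genes 13 to 17 of 20 were testable per comparison. Cd80 was higher in 2DG and in aPDL1, each over the same control library. Mki67, a proliferation marker, was higher in aPDL1 over control, and Nt5e lower in 2DG_aPDL1 over aPDL1. None of the 6 testable survival and receptor genes was past the fold in any of the 5 comparisons. No gene of the lists was among those the additive fit called, which were Hspa1a, Hspa1b, Slc15a2 and Fkbp5 for aPDL1, Slc15a2 for 2DG and AA467197 for 2FF. The same ratios were not computed in plasma cells, since no pair of libraries had 20 each.

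Against B cells, plasma cells showed the secretory program along with the members. Igha, Ighg2c, Igkc and Jchain were higher in all 6 plasma sums than in any of the 6 B cell sums, where 3.95% of 9070 genes were, and Ighd was lower, where 33.9% were. Jchain ran from 12210 to 24450 CPM in plasma cells and from 2.17 to 53.8 CPM in B cells. Of the antibody secretion program 17 of 20 genes lay above without overlap, 11 of 14 without gate markers. Xbp1 was at 997 to 1252 CPM against 25.3 to 40.8, and Hsp90b1, a chaperone of the endoplasmic reticulum, at 1478 to 5427 CPM against 226 to 284. Irf4, Ell2 and Pou2af1 overlapped.

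Of the B cell identity genes 14 of 20 lay below, 9 of 15 without gate markers. Bach2, a repressor of the plasma cell fate, was at 0 to 90.1 CPM in plasma cells and 2135 to 3302 CPM in B cells. Of the survival and receptor genes Ccr10 lay above (18 to 69.4 CPM against 0 to 0.722), and Cxcr4, Fcgr2b, Fcrl5 and Fcmr below. Fcmr is a marker of the B cell gate, and without it 3 of 13 lay below, beside 33.9% of all genes. The antibody RNA lowers the CPM of all other genes: the median over all genes was log2 -0.88 in plasma over B cells, and -0.32 when scaled to UMIs that are not of immunoglobulin genes. On that scale 19 secretion genes lay above and 13 identity genes below, and of the survival and receptor genes 2 lay above and 3 below; over all genes 769 lay above and 1506 below.

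The 5 genes most like Jchain over 40 profiles of class and library were Fkbp11 (r = 0.90), Derl3 (0.90), Eaf2 (0.79), Pon3 (0.70) and Mzb1 (0.68). Fkbp11, Derl3 and Mzb1, factors of protein folding and secretion, are gate markers. The profiles share libraries, and only 1 of them, of 2FF, is of plasma cells; over the 39 others r was 0.58, 0.32, 0.44, 0.02 and 0.48.

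Plasmacytoid dendritic cells, interferon-producing cells known to carry partly rearranged heavy chain genes, stood above the other dendritic cells in Ighm and in the lambda row Iglc3. Ighm was at 622 to 1081 CPM in them, at 30 to 46 CPM in the other dendritic cells and at 2306 to 2563 CPM in B cells, without overlap. It was higher than in other dendritic cells in 6 of 6 libraries, 17.6-fold on CPM + 5 (log2 4.14 ± 0.28, SD, exact permutation p = 0.03125, adjusted p = 0.0365 over 7). This p is the smallest that 6 libraries can give. The 7 comparisons, those of Iglc3 and Igkc below included, were chosen after their values were seen, and the adjustment does not cover that choice. An Ighm UMI was found in 127 of 131 cells (96.9%, 92.4% to 99.2%) at a median of 8708 UMIs, and in 377 of 1513 other dendritic cells (24.9%) at 10818 UMIs. No cell held over 21 Ighm UMIs, so no single cell carried the sum.

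Iglc3 was at 275 to 395 CPM in plasmacytoid dendritic cells, 0 to 0.648 CPM in other dendritic cells and 205 to 262 CPM in B cells. The level exceeded that of B cells in 6 of 6 libraries, 1.42-fold (exact permutation p = 0.03125, adjusted p = 0.0365 over 7). This order turned for Iglc2 and Iglc3 together, whose split is uncertain: their sum was 338 to 473 CPM in plasmacytoid dendritic cells and 646 to 876 CPM in B cells, lower in each library. Iglc3 UMIs were in 99 of 131 cells (75.6%, 67.3% to 82.7%), against 1 of 1513 other dendritic cells and 17 of 12830 T cells. Iglc2 was in 17 of the 131, with 75 UMIs to the 391 of Iglc3, whereas B cells had 3558 of Iglc2 and 1635 of Iglc3. Jchain was in 2 of the 131 cells with 1 UMI each, and variable segment rows had 21 UMIs in all. None of the cells had more than 1 B cell marker. The gate set this in part, since it asked for 2 more markers than of any other class.

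**Figure D5:**
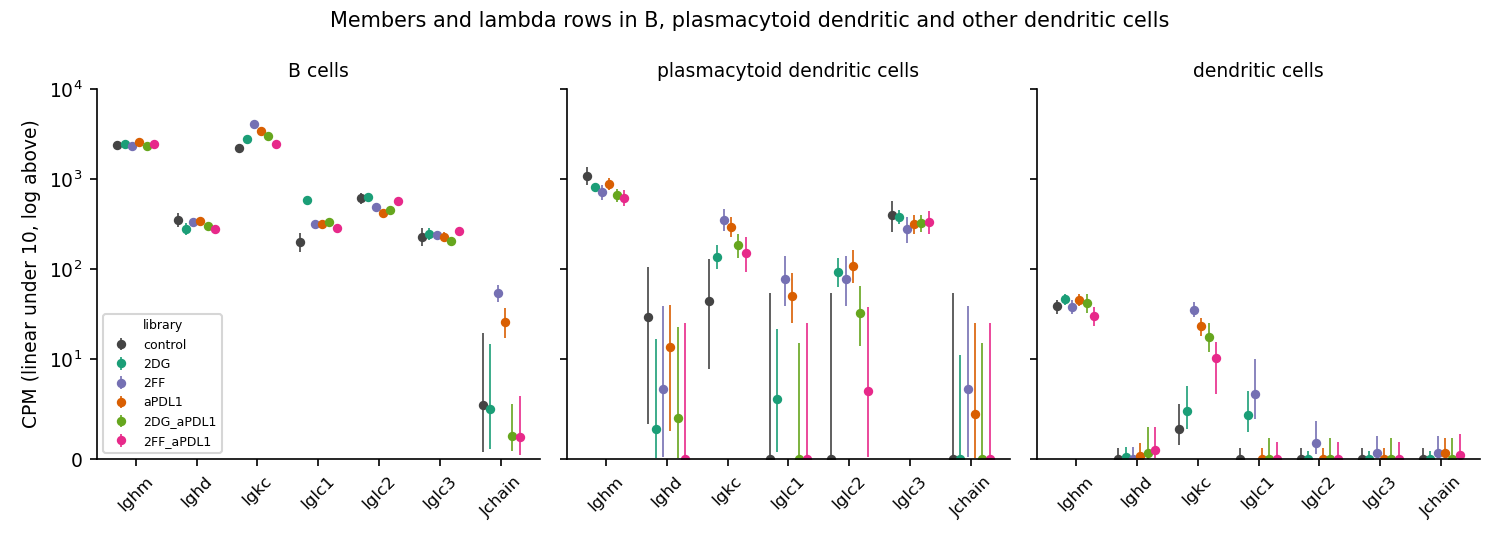
CPM of members and lambda rows in B, plasmacytoid dendritic and other dendritic cells, 1 point per library with exact 95% Poisson bars, on an axis that is linear under 10 and logarithmic above. Ighm and Iglc3 are high in plasmacytoid dendritic cells of all 6 libraries, while Igkc follows the order of the libraries seen in the other dendritic cells.

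Igkc in plasmacytoid dendritic cells ran from 43.8 CPM in control to 352 CPM in 2FF. The control value rests on 6 cells, so on few UMIs. The other libraries held 35 (2DG), 16 (2FF), 26 (aPDL1), 34 (2DG_aPDL1) and 14 (2FF_aPDL1) of these cells, and each library counts alike in the permutation tests. The other dendritic cells ran from 3 CPM to 35.3 CPM, with the same 2 libraries at the ends. Igkc was higher in the plasmacytoid cells in 6 of 6 libraries (9.43-fold on CPM + 5; exact permutation p = 0.03125, adjusted p = 0.0365 over 7), and the part of free RNA in it was not tested.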

How the data were processed

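Cells of 1 mouse per treatment were measured with the 10x 3′ v3.1 assay, and samples were grouped by the treatment in the labels. The deposited matrices hold UMI counts, not normalized, that the authors obtained on mm10 for called cells, before their limits on genes and mitochondrial content. The file headers and the study's methods name Cell Ranger 7.0.0, and the submitters' processing notes 3.1.0; whether intronic reads were counted is not given in the sources used here. Total counts per library were 61859753 to 73885214.

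Here, cells with fewer than 250 genes or over 5% mitochondrial UMIs were left out, classes were gated by markers, and UMIs were summed per class and library (Python 3.11.15, numpy 2.4.6, scipy 1.17.1). A heavy chain led a cell if it held 50% of at least 10 heavy chain UMIs (3 in B cells). The named genes are the members, the other constant rows, 3 lists and the 5 genes most like Jchain. Ighe had 23 UMIs in plasma and 3 in B cells and Iglc4 0 and 8; Ighg2a is not a row. The members and lists were chosen with earlier results of these data known. No doublet caller was run. Cells with markers of other classes were left out in an alternative for the shares of cells and the B cell ratios. This was not done for the Igha-led comparison or the additive fit. The comparison of Igha-led with IgG-led cells used edgeR 4.0.16 (filterByExpr with min.count 3 and min.total.count 15, TMM), with DESeq2 1.42.0 as alternative. The additive edgeR fit of B cell sums over the 6 libraries used the same filter and 4 coefficients. These fits and the exact permutation tests were added after seeing the data. The p-values of the Igha-led comparison measure how the difference within a library varied between 6 differently treated mice. In control the IgG-led side was 1 cell. Code was tested on simulated data. Sequences and coordinates are from GENCODE M21 (GRCm38).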

Additional observations from a re-analysis of the deposited data

Results flagged for a closer look

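Ighg2b in B cells differed in direction with 2DG: its log2 ratio was 2.37 over control and -1.01 in 2DG_aPDL1 over aPDL1, a difference of 3.38. All 5 control UMIs lay in 1 cell, the ratio over control was under the minimum of UMIs without marker doublets or without the richest cell, and the other ratio was -0.59 without marker doublets and -0.92 when centred on the median of all genes. Igha did so with 2FF: log2 6.12 over control and -2.02 in 2FF_aPDL1 over aPDL1, a difference of 8.14. The control has no Igha UMI, so that the 6.12 and the 8.14 are set by the added 5 CPM and the ratio itself is known only as at least 42.1-fold, and 1 B-gated cell holds 472 of 511 UMIs in 2FF. Each rests on 1 library per arm, and neither difference was tested.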

How the results depend on the processing

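Of the 824 values recomputed under alternatives, none that was called in the main run turned its direction. Shares and counts cannot turn, and the additive fit called 0 members, so this does not cover its member values. Of the values for the main results, 233 stayed the same, 53 moved and 4 lost their call. A value moved if a share left its main interval, or a count or mean passed a set limit. Of the other values, 491 stayed the same, 3 moved, 17 lost a call and 23 gained one. Among the member ratios in B cells that stayed testable, 8 of 358 changed side of the fold. Ratios that fell under the minimum of UMIs in an alternative were left out, also those past the fold in the main run. Members past the fold in 2DG over control (1) numbered 5 with no minimum of UMIs, 4 with a margin of 1 marker and 0 without the richest cell of each gene or without marker doublets. In 2FF over control (4) they numbered 1 without the richest cells, 2 with free RNA subtracted and 2 without immunoglobulin-rich B cells, and in aPDL1 over control (4) 1 without marker doublets. With every immunoglobulin-rich cell, 22.2% of control cells were switched; without marker doublets, 4.55% of 2DG B cells were. With a margin of 1 marker the members were on average 35.2% of plasma UMIs in place of 40.6%. Between Igha-led and IgG-led cells DESeq2 called 16 genes and no filter gave 36, against 10; leaving out 1 library at a time gave 3 to 15 genes, and log2 2.05 to 2.79 for Jchain, called without control or 2FF_aPDL1 only. Without a library block Jchain stood at 2.24 (adjusted p = 0.0152, edgeR). In the additive fit of B cells, with the agent as replicate block for aPDL1, genes called for aPDL1, 2DG and 2FF were 4, 1 and 1; they were 2, 4 and 1 with DESeq2, 22, 44 and 36 with no filter (members 2, 2 and 1), and 0 in each with edgeR without the block (343, 481 and 448 at an unadjusted p of 0.05). Leaving out 1 library at a time gave 7 to 23, 9 to 68 and 2 to 70 genes, and 0 to 5, 0 to 4 and 0 to 3 members. Ratios between libraries in plasma cells, with all their alternatives, were not run because 1 library reached 20 cells. Alternatives on all immunoglobulin-rich cells, B cells without them, light chains, the Igha-led comparison and the additive fit were chosen after seeing the data. Shares over 5 to 32 plasma cells leave wide intervals.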
